A study of Mus musculus with 9 samples.

Results

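The mouse genes named Ptpn and Ptpr encode the classical protein tyrosine phosphatases, and 36 of them were examined for binding of the transcription factors E2A and HEB. They were chosen by gene name, with no peak value in the rule, though earlier results of these data were known. Ptpn20, which bears the same name, was not among them and had no peak in any list. All 36 were found among the 21887 protein-coding genes that the reference places on the main chromosomes. A gene was counted as having a peak when a called peak lay in its span or no farther than 10 kb outside it.

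The series holds chromatin immunoprecipitation libraries with an antibody to E2A, an antibody to HEB or no antibody (input) from 3 stages of mouse T cell precursors grown from fetal liver, 1 library per stage and antibody. All cells were Rag2-deficient and of the BALB/c strain, and so made no antigen receptor of their own. The DN3 stage was untransduced precursors (Thy1.2+ CD4- CD8- CD25+ CD44-) grown on OP9-DL1 stroma, which displays a Notch ligand, and harvested at day 7. For the other 2 stages, DN3 cells were infected with the MIY-KN6 retrovirus, which encodes YFP and KN6, a gamma-delta T cell receptor, overnight with 5 ng/ml IL7 and 5 ng/ml Flt3L. YFP+ cells were returned to OP9-DL1 for 3 days, fixed for 10 min in 1% formaldehyde and sorted as CD24+ CD73- or CD24+ CD73+, where CD73 marks commitment to the gamma-delta fate. The receptor is a transgene from a single clone, and its effects cannot be told apart from those of the virus, the longer culture or the sort. Both antibodies were rabbit polyclonal sera against the C-terminal end of their protein.

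A protein tyrosine phosphatase removes phosphate groups that tyrosine kinases add, and in T cells these enzymes set the threshold of antigen receptor signalling. CD45 (Ptprc) switches on the kinase Lck by removing an inhibitory phosphate, whereas SHP-1 (Ptpn6) and Ptpn22 shut signalling down. The Ptpr genes encode enzymes that cross the plasma membrane, and the Ptpn genes encode enzymes inside the cell. E2A and HEB are basic helix-loop-helix proteins that bind E-boxes, sites of the form CANNTG, and drive early T cell development.

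The deposited data are 6 peak lists, from DN3, CD73- and CD73+ cells with each antibody. The authors joined duplicate samples before calling peaks, so there is no replicate error behind any value below and no test between stages was possible. The score of a peak is the authors' own, 10 times the negative base-10 logarithm of its p-value, at least 50 in these files. It ranks peaks within a list, and a lower score in another list shows no weaker binding. Read depth is unknown, and a gene without a called peak is not shown to be unbound. The lists held 9407 to 23205 peaks on the main chromosomes. The CD73+ E2A list stood apart, as the longest and the one whose peaks were least often shared: 16.8% of its peaks were also called in at least 1 further list, against 31.8% to 60% in the other 5. Of 12 T lineage marker genes, 3 had a CD73+ E2A peak, where genes of like span (explained below) would give 2.33. The other lists had 6 to 12, where like span would give 1.74 to 3.05. The neighbouring T markers Cd3d and Cd3g had the same highest score in every list and were counted separately. Fixed markers were 7 B, 6 myeloid, 5 erythroid, 5 stroma and 4 liver genes. Of each such set at most 3 genes had a peak in a list. This was at stroma genes for DN3 HEB, where like span would give 1.16. The myeloid marker Itgam had a DN3 E2A peak of 1184, higher in that list than at every T marker but Notch1 (1714). Its CD73+ HEB peak of 1134 was higher in that list than at every T marker, of which Lck had the highest (437). Peaks do not measure expression, and so do not check the labelled cell type or the Rag2 deletion. Counts over several lists are given with and without the CD73+ E2A list. Whether the 2 CD73+ lists carry each other's antibody label cannot be settled from the peaks, so every CD73+ value below is that of the list labelled E2A or HEB.

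Of the 36 phosphatase genes, 32 had a peak in at least 1 list, against 54.5% of all genes, and 30 with the CD73+ E2A list left out, against 48.1%. A peak in every list was called at 3 (Ptpn14, Ptprk and Ptprm), against 3.28% of all genes, and the count was also 3 over the 5 lists without CD73+ E2A, against 4.5%. Ptpn12, Ptpn21, Ptpn23 and Ptpru had none. These are long genes, with a median span of 108 kb (13.5 to 2270 kb) against 17.2 kb for all protein-coding genes. Longer genes had a peak more often in every list: in the DN3 E2A list, 20.2% of all genes under 50 kb and 60.1% of those over 300 kb. Counts over several lists are given beside all genes only and are not adjusted for span. For each single list, the count over the 36 genes was also set beside genes of like span. All protein-coding genes were divided into 10 classes of span, and the share with a peak in each member's own class was averaged over the 36. Both shares describe the lists and carry no test.

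In DN3 cells, 23 of the 36 genes (63.9%) had an E2A peak, against 26.2% of all genes and 44.5% of genes of like span. HEB peaks were called at 16 genes (44.4%), against 24.3% of all genes and 42.2% at like span. In CD73- cells, 10 genes (27.8%) had an E2A peak, against 17.6% of all genes and 36% at like span. The CD73- HEB list also had peaks at 10 genes (27.8%), against 17.1% and 33.7%. In CD73+ cells, 15 genes (41.7%) had an E2A peak, against 23.7% and 47.7%, and 20 genes (55.6%) had a HEB peak, against 20.2% and 36.5%. With the 10 kb margin, the phosphatase genes thus stood above genes of like span in the DN3 E2A and CD73+ HEB lists. They were close to them for DN3 HEB, and below them in both CD73- lists and for CD73+ E2A. Peaks inside the span alone left 20 genes for DN3 E2A and 14 for CD73+ HEB, with no like-span share beside them. Per megabase of all 36 genes pooled, there were fewer peaks than over all genes in both lists: 5.11 against 6.17 (DN3 E2A) and 2.86 against 4.19 (CD73+ HEB). The pooled length includes the 6 genes over 300 kb, which had only 1.29 (DN3 E2A) and 1.13 (CD73+ HEB). No density of the shorter members alone is given, so the pooled values do not show these genes to be poor in peaks. The Ptpn and Ptpr genes differed little in the DN3 E2A and CD73+ HEB lists, with 9 of 16 Ptpn and 14 of 20 Ptpr genes for the first and 9 and 11 for the second. They were farther apart for DN3 HEB, with 4 of 16 Ptpn and 12 of 20 Ptpr genes. The Ptpr genes are also longer, with a median span of 164 kb against 60 kb for Ptpn. Over all genes, a DN3 HEB peak was called at 35.8% of those of 50 to 100 kb and 48.2% of those of 100 to 300 kb. The part of span in this difference was not tested.

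Peaks scoring at least 100, called strong here, were found at 16 of the 36 genes, against 19.2% of all genes, and at 14 without the CD73+ E2A list, against 17.3%. The strong DN3 E2A peaks lay at 12 genes, where all genes gave 13.4% and genes of like span 24.1%. The 8 genes with a strong DN3 HEB peak were all among these 12, beside 10.5% of all genes and 18.9% at like span. Strong CD73- peaks were few, at 3 genes for E2A (3.06% of all genes, 5.73% at like span) and at 4 for HEB (4.08% and 7.84%). Strong CD73+ peaks were called at 5 genes for E2A (4.0% and 9.69%) and at 8 for HEB (7.43% and 12.6%). The median of the members' highest peaks was 103 in the DN3 E2A list, as it was over all genes with a peak. It was 78.0 against 75.2 in the CD73+ HEB list. For DN3 HEB it was higher, at 117 against 87.2. In the remaining lists it was also higher: 68.5 against 62.1 (CD73- E2A), 77.0 against 65.6 (CD73- HEB) and 82.2 against 67.2 (CD73+ E2A). These medians were not set beside genes of like span.

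**Figure D1:**
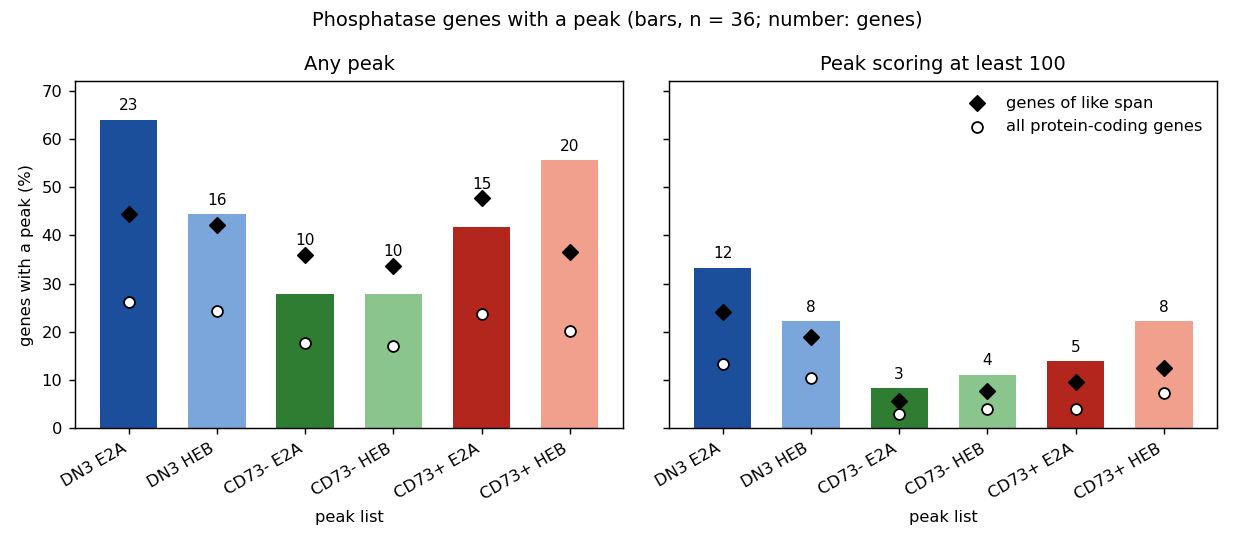
Share of the 36 phosphatase genes with any peak (left) or a peak scoring at least 100 (right) in each list, in percent, with the number of genes above each bar; diamonds give genes of like span and circles all protein-coding genes. The DN3 E2A and CD73+ HEB bars, at 23 and 20 genes, stand highest above their diamonds on the left.

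**Figure D2:**
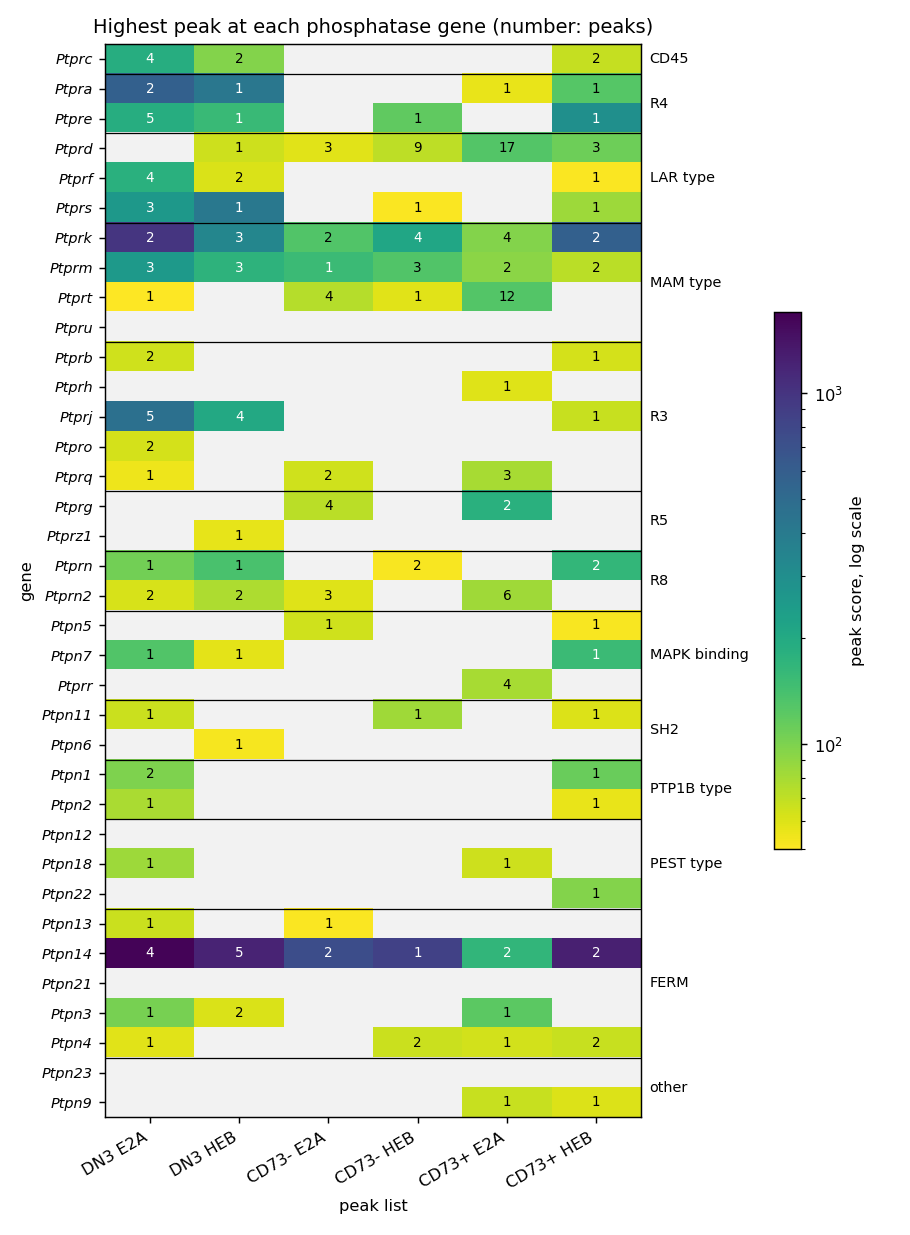
Highest peak score (colour, log scale) and number of peaks (digits) at each of the 36 genes in each list, in groups by family. Grey cells have no called peak; Ptpn14, Ptprk and Ptprm are the 3 genes with a peak in every list.

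Among the receptor phosphatases, CD45 (Ptprc) had 4 DN3 E2A peaks, 2 DN3 HEB peaks and 2 CD73+ HEB peaks, and none in the other 3 lists. The site at chr1:138177595-138178336 lies 1838 bp outside the span, upstream of the gene, and scored 189.6 in the DN3 E2A list, 59.4 in the DN3 HEB list and 53.3 in the CD73+ HEB list. A site inside the gene, chr1:138153980-138155207, was called in the same 3 lists with scores of 186, 95.8 and 67.8. CD45 therefore had both of its shared sites in DN3 cells and in the HEB list of CD73+ cells, and no peak in either list of CD73- cells.

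The relatives Ptpra and Ptpre also act on Src family kinases. Ptpra had the third-highest member region, chr2:130539854-130540980, 90139 bp downstream of its start site. It scored 578 for DN3 E2A, 422 for DN3 HEB, 56.5 for CD73+ E2A and 127 for CD73+ HEB, with no peak in CD73- cells. At Ptpre the shared region was chr7:135542114-135543354, 4910 bp downstream of a start site, with scores of 128 for DN3 E2A and 157 for DN3 HEB. The same region scored 118 for CD73- HEB and 294 for CD73+ HEB, and no later E2A peak was called. Ptpre had 4 further DN3 E2A peaks that overlapped no other list, the highest of them (188) at chr7:135637276-135638064.

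Ptprj, which encodes the receptor phosphatase CD148, had nearly all of its peaks in DN3 cells. It had 5 DN3 E2A and 4 DN3 HEB peaks, with both factors at 3 sites, and no peak in the CD73- lists or the CD73+ E2A list. Its highest site, chr2:90457634-90458592, scored 459.8 for E2A and 201 for HEB. None of these 9 peaks overlapped a later peak. The single CD73+ HEB peak (67.0) lay elsewhere, at position -573 from a start site, where the reference also has the gene Gm46752. The others of its subfamily had only weak peaks. Ptprb, an endothelial phosphatase, reached 64.1 for DN3 E2A and 62.3 for CD73+ HEB at 1 shared site. Ptpro, of kidney podocytes, reached 63.0 in the DN3 E2A list alone. Ptprq, of the inner ear, had E2A peaks that reached 55.0 at DN3, then 64.7 (CD73-) and 79.4 (CD73+). Ptprh, an intestinal phosphatase, had only a CD73+ E2A peak of 59.6.

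The LAR family, Ptprf, Ptprs and Ptprd, encodes adhesion receptors best known from synapses. Ptprs had a wide DN3 HEB peak of 2742 bp at chr17:56443192-56445933 with a score of 416. Within it lay 2 DN3 E2A peaks of 259.9 and 165, a CD73- HEB peak of 50.7 and a CD73+ HEB peak of 83.6. Ptprf had a region at chr4:118257158-118258053 that scored 181 for DN3 E2A, 60.8 for DN3 HEB and 50.8 for CD73+ HEB. Both genes thus had DN3 peaks of both factors and later peaks of HEB, with no E2A peak after DN3. Ptprd had another pattern, with no DN3 E2A peak and 1 DN3 HEB peak of 65.2, beside 17 CD73+ E2A peaks, the highest at 129. Its CD73- peaks, 3 for E2A and 9 for HEB, did not pass 71.0 (at chr4:76731469-76731627, for HEB), and its 3 CD73+ HEB peaks reached 109.

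Ptprk, Ptprm, Ptprt and Ptpru carry a MAM domain, and the first 3 join cells by binding to themselves on neighbouring cells. Loss of Ptprk in the LEC rat impairs the development of CD4 T cells. In these data Ptprk had the second-highest member region, chr10:28513100-28514393, 438927 bp into the gene. The region scored 992 for DN3 E2A, 335 for DN3 HEB, 131 for CD73- E2A, 212 for CD73- HEB, 53.1 for CD73+ E2A and 578 for CD73+ HEB. A further region near the end of the gene, chr10:28593480-28594763, was called in 5 lists: 177 for DN3 E2A, 267 for DN3 HEB, 63.9 for CD73- HEB, 96.6 for CD73+ E2A and 198 for CD73+ HEB. Both sites were thus far from the start site of a gene of 523 kb.

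Ptprm had peaks in all 6 lists, but at different places. A DN3 region, chr17:67126289-67127223, scored 255 for E2A and 110.9 for HEB and had no later peak. Another, chr17:66799307-66799719, was called in every list but DN3 E2A, with 173 for DN3 HEB, 154 for CD73- E2A, 131 for CD73- HEB, 92.2 for CD73+ E2A and 72.3 for CD73+ HEB. The 4 later peaks there were 65 to 96 bp wide, far narrower than the usual peak of their lists (median widths 149 to 181 bp). Ptprt had 12 CD73+ E2A peaks, the highest 129 and 68 bp wide, against 1 DN3 E2A peak of 50.1 and no peak in either the DN3 or the CD73+ HEB list. Its other peaks were 4 of CD73- E2A, up to 74.5 at chr2:161988319-161988486, and 1 of CD73- HEB (58.9).

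**Figure D3:**
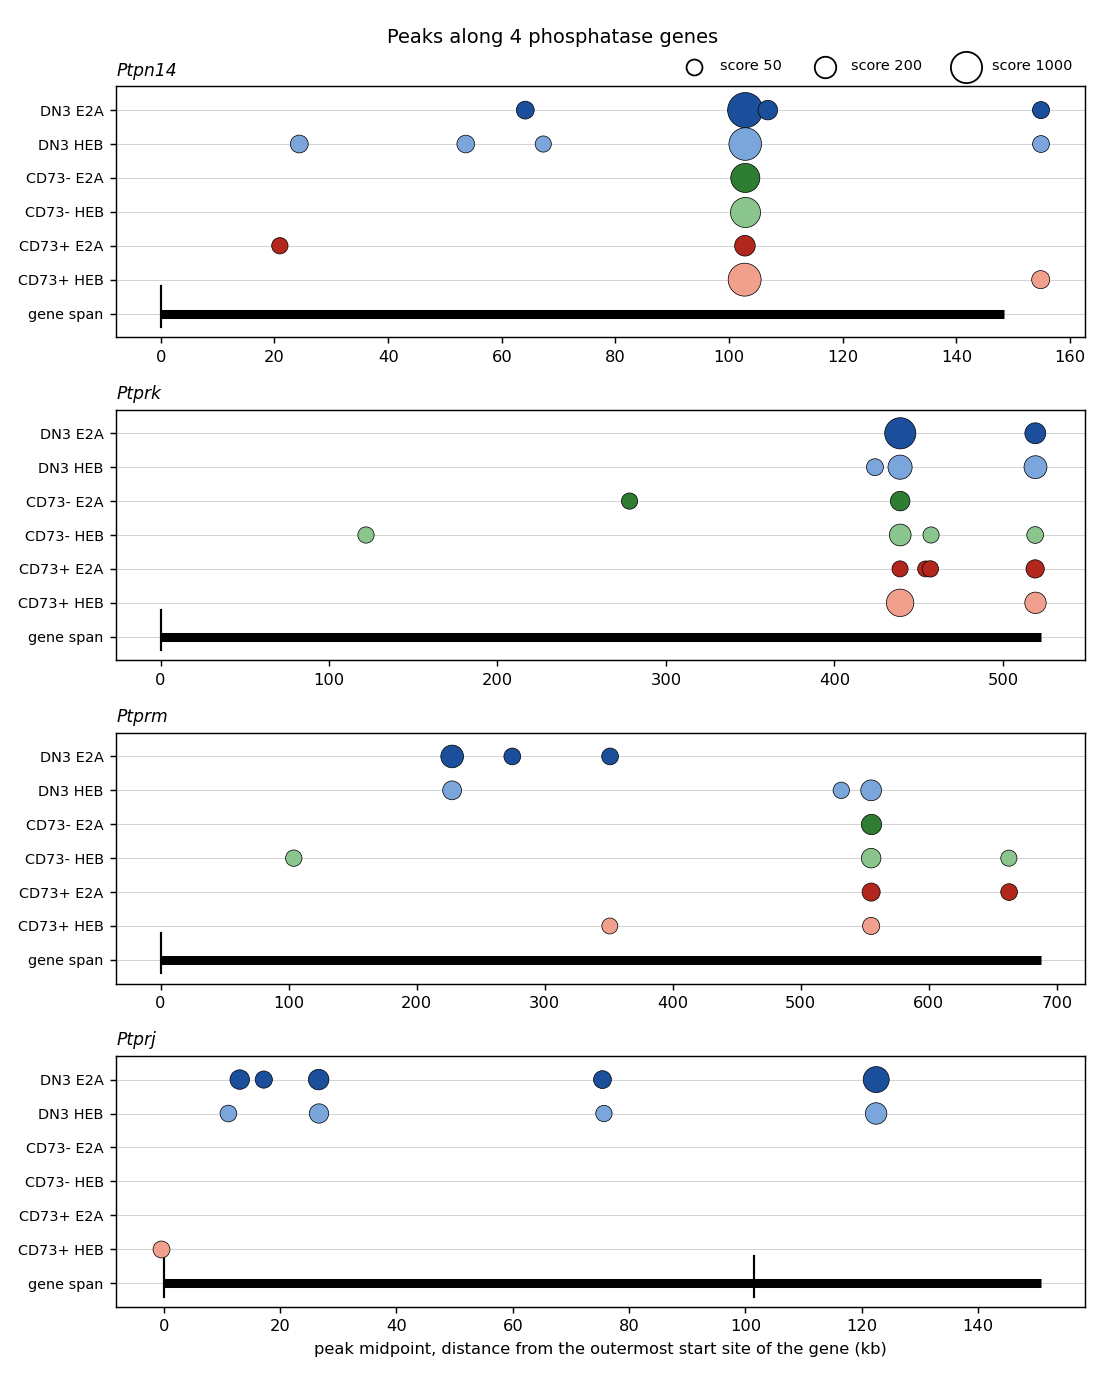
Midpoints of peaks along Ptpn14, Ptprk, Ptprm and Ptprj, in kb from the outermost start site of each gene, by list; circle area grows with the score, the black bar is the gene span and the vertical ticks are start sites. One position is shared by all 6 lists at Ptpn14 and at Ptprk, whereas the Ptprj peaks are nearly all of the 2 DN3 lists.

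Of the 2 phosphatases with a carbonic anhydrase-like domain, Ptprg had 4 CD73- E2A peaks of up to 72.3 and 2 CD73+ E2A peaks. The higher of these scored 180.1 and was 70 bp wide, at chr14:11946124-11946193. Ptprz1, of neural precursors, had 1 DN3 HEB peak of 56.9 that lay 7743 bp outside it. Ptprn and Ptprn2 encode proteins of secretory granules that lack normal phosphatase activity. Ptprn had a HEB site at chr1:75251070-75252100, with scores of 137 at DN3, 52.0 (CD73-) and 165 (CD73+). The only E2A peak of Ptprn was a DN3 peak of 106 at another position. Ptprn2 had no strong peak: its highest were 62.2 for DN3 E2A, 76.9 for DN3 HEB, 59.6 for CD73- E2A and 82.2 for CD73+ E2A.

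Among the phosphatases inside the cell, Ptpn7, an enzyme of blood cells that acts on the MAP kinases ERK and p38, had peaks at the start of its span. The region chr1:135130839-135132112, which reaches from upstream into the span, scored 129.6 for DN3 E2A, 57.9 for DN3 HEB and 154 for CD73+ HEB, the same 3 lists as CD45. Ptpn5 and Ptprr, which bind MAP kinases through the same motif, had no strong peak. Ptpn5, of the brain, had 64.3 for CD73- E2A and 51.9 for CD73+ HEB, and Ptprr had 4 CD73+ E2A peaks of up to 79.4 and no others.

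No strong peak was called at the phosphatases with SH2 domains, SHP-1 and SHP-2, or at the PEST group, Ptpn12, Ptpn18 and Ptpn22. SHP-1 (Ptpn6) had a single DN3 HEB peak of 52.5, which lay 7069 bp outside it, in the neighbouring gene Atn1. SHP-2 (Ptpn11), which carries growth factor and cytokine signals to ERK, had a DN3 E2A peak of 66.2 inside it. Its CD73- HEB (83.0) and CD73+ HEB (60.1) peaks shared a site at chr5:121199309-121199519, to which Rpl6 is the nearest gene. Ptpn22, which acts on Lck, had 1 peak in all, of 96.4 in the CD73+ HEB list, with its midpoint at position -435 from a start site. Its relatives Ptpn12 and Ptpn18 had none and 2, and the Ptpn18 peaks, 83.6 for DN3 E2A and 65.6 for CD73+ E2A, lay 8101 and 7949 bp outside the gene.

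Ptpn1 (PTP1B) and Ptpn2 (TC-PTP), which act on insulin and cytokine receptors and the kinases bound to them, showed the same pattern of lists. Ptpn1 had 99.1 for DN3 E2A and 112 for CD73+ HEB at 1 site, chr2:167942607-167943341. Ptpn2 had 78.4 for DN3 E2A and 56.5 for CD73+ HEB at 1 site, 9586 bp outside the gene. Neither had a DN3 HEB or a CD73- peak.

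Ptpn3, Ptpn4, Ptpn13, Ptpn14 and Ptpn21 carry a FERM domain, which attaches proteins to the cell cortex. Ptpn14, a regulator of the Hippo pathway effector YAP, held the highest peak of all 36 genes in 5 lists and the second highest, after Ptprg, in the CD73+ E2A list. The region, chr1:189830319-189831884, lies 102834 bp downstream of the start site, inside the gene. It scored 1652 for DN3 E2A, 1199 for DN3 HEB, 740.5 for CD73- E2A, 854 for CD73- HEB, 167 for CD73+ E2A and 1249 for CD73+ HEB. It was thus called at every stage with both antibodies, with its lowest score in the CD73+ E2A list. A weaker site beyond the end of Ptpn14, with 70.8 for DN3 E2A, 65.0 for DN3 HEB and 91.6 for CD73+ HEB, lies in Smyd2. Ptpn3 scored 103 for DN3 E2A, 61.1 for DN3 HEB and 122, in a peak of 68 bp, for CD73+ E2A, each at its own position. Ptpn4 did not pass 67.0 in any list, and Ptpn13 had 66.6 for DN3 E2A and 51.0 for CD73- E2A. Of the remaining enzymes, Ptpn9, which acts in vesicle fusion, had 66.9 for CD73+ E2A and 60.1 for CD73+ HEB, and Ptpn23, of endosomal sorting, had no peak.

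Few of these peaks lay at promoters. RefSeq promoter windows (250 bases before to 50 after a start site, build GRCm38.p6) were at hand for 31 of the 36 genes, 45 windows in all, and 1 of the 45 was overlapped by a peak, where 4.37% of all 32851 windows were. This was the Ptpn3 window, with the DN3 HEB peak of 61.1 covering positions -572 to 270 around the start site. That start site, chr4:57301837, is internal, as the Ptpn3 span begins at chr4:57339040 on the minus strand. Peak midpoints within 1000 bp of a start site numbered 4 for CD73+ HEB, 1 each for DN3 HEB and CD73+ E2A, and none in the other lists. The 4 CD73+ HEB peaks belonged to Ptpn22, Ptprj and, with 2 peaks of 57.5 and 67.0, Ptpn4. The 250 bases upstream of the start site are shown for Ptpn3, where the peak covers the window of this internal start site. They are also shown for Ptpn22 and Ptpn4, where the peak lies just upstream of them. The start sites used for Ptpn22 and Ptpn4 lie inside the gene spans too. They run 5′ to 3′ on the strand of the gene, with E-boxes (CANNTG, which reads the same on both strands) in capitals.

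Ptpn3 (GRCm38.p6, chr4:57301838-57302087, minus strand): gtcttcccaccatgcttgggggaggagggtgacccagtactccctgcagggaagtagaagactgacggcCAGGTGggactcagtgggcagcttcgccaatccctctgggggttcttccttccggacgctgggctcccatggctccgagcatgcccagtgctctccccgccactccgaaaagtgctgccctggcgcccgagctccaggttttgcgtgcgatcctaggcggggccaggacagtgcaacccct
Ptpn22 (GRCm38.p6, chr3:103859545-103859794, plus strand): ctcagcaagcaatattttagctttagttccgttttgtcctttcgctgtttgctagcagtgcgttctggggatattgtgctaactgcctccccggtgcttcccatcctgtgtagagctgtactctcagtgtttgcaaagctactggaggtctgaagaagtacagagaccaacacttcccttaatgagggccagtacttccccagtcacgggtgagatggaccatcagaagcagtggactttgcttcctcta
Ptpn4 (GRCm38.p6, chr1:119837072-119837321, minus strand): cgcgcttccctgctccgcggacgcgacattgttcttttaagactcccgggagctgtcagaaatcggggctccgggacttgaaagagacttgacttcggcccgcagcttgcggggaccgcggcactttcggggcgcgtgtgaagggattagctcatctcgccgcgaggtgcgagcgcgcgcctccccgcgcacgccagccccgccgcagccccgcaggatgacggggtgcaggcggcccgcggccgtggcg

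The Ptpn3 stretch holds 1 E-box, CAGGTG, with its first base at position -181, inside the DN3 HEB peak. The Ptpn22 and Ptpn4 stretches hold none. The Ptpn22 peak ends 52 bp before the printed stretch and the nearer Ptpn4 peak 81 bp before it, so the bases under those peaks are not shown. An E-box was found in 24 of the 45 member stretches and in 66.2% of all such stretches. The form CACCTG, or CAGGTG on the other strand, was in 7 of the 45 and 17.2% of all, CAGCTG in 2 and 13.0%, and CATCTG, or CAGATG, in 5 and 14.4%. These 3 forms are all cases of CANNTG. A letter match is a description and not a binding site.

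Called peaks of both DN3 and later cells were compared next. Of the 23 genes with a DN3 E2A peak, 7 had a CD73- E2A peak (30.4%, against 33.8% of all genes with a DN3 E2A peak) and 10 a CD73+ E2A peak (43.5%, against 36.6%). The later peak overlapped a DN3 peak at Ptpn14 and Ptprk in CD73- cells, and at Ptpn14, Ptpra and Ptprk in CD73+ cells. These are 28.6% of the 7 genes, against 54.2% over all genes, and 30% of the 10, against 34.0%. Of the 16 genes with a DN3 HEB peak, 7 had a CD73- HEB peak (43.8%, against 41.5%) and 12 a CD73+ HEB peak (75.0%, against 50.3%). Here the site was shared at 6 of the 7 (Ptpn14, Ptpre, Ptprk, Ptprm, Ptprn and Ptprs) and at 10 of the 12, which added Ptpn7, Ptpra, Ptprc and Ptprf. These are 85.7% and 83.3%, against 68.5% and 76.1% over all genes. E2A peaks in DN3 cells only were found at 12 of the 36 genes, where 13.3% of all genes had this pattern, and at 16 (17.3% of all genes) without the CD73+ E2A list. The 12 include CD45, Ptpn7, Ptprj, Ptpre, Ptprf and Ptprs.

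Peak by peak, 2 of 50 DN3 E2A peaks at the phosphatase genes overlapped a CD73- E2A peak (4.0%, Wilson 95% interval 1.1% to 13.5%, for counting error only), against 11.9% at all genes. A CD73+ E2A peak overlapped 4 of the 50 (8.0%, 3.15% to 18.8%), against 7.62%, and a CD73+ HEB peak overlapped 15 (30%, 19.1% to 43.8%), against 28.0%. The DN3 E2A sites of these genes thus met CD73+ HEB peaks more often than peaks of either later E2A list, as the sites of all genes did. Of the 31 peaks of DN3 HEB at these genes, 7 met a CD73- HEB peak (22.6%, 11.4% to 39.8%), against 20.6% at all genes. A CD73+ HEB peak overlapped 13 of them (41.9%, 26.4% to 59.2%), against 29.7%. The values at all genes lie inside each of these intervals.

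At a single stage, E2A and HEB peaks coincided most in DN3 cells, where 17 of 31 HEB peaks at the phosphatase genes overlapped an E2A peak (54.8%, 37.8% to 70.8%), against 52.1% at all genes. In CD73- cells 3 of 25 did (12.0%, 4.17% to 30%), at Ptpn14, Ptprk and Ptprm, against 25.1%. In CD73+ cells 5 of 28 did (17.9%, 7.88% to 35.6%), against 14.2%. Among strong HEB peaks the share in DN3 cells was 81.8% (9 of 11, 52.3% to 94.9%), against 85.5% at all genes. It was 75.0% (3 of 4, 30.1% to 95.4%) in CD73- cells, against 72.9%, and 44.4% (4 of 9, 18.9% to 73.3%) in CD73+ cells, against 28.6%. The values at all genes lie inside these intervals too. The lists differ in length, and its part in these shares was not tested. Each stage has 1 input library for both antibodies.

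Peaks of all 6 lists, merged where they touched, gave 156 regions at the phosphatase genes. A single list called 127 of them (81.4%, against 77.6% of regions at all genes), and all 6 lists called 2 (1.28%, against 1.3%), those of Ptpn14 and Ptprk. Without the CD73+ E2A list, 82 of 107 regions were of a single list (76.6%, against 73.4%) and 2 of all 5 (1.87%, against 3.03%). The CD73+ E2A list alone accounted for 49 of the 127, DN3 E2A for 28, CD73- E2A for 16, CD73- HEB for 14, DN3 HEB for 12 and CD73+ HEB for 8. Merged by factor, 46 of 121 E2A regions were of DN3 cells only (38.0%, against 35.9% at all genes) and 2 were of all 3 stages (1.65%, against 2.2%). Without the CD73+ E2A list, 48 of 70 E2A regions were of DN3 cells and not of CD73- cells (68.6%, against 59.4%). For HEB, 18 of 61 regions were of DN3 cells only (29.5%, against 35.4%) and 7 of all 3 stages (11.5%, against 8.11%). Of the 14 HEB regions that held a strong peak, 7 were called at all 3 stages (50%, against 30.3%): 2 at Ptprk and 1 each at Ptpn14, Ptpre, Ptprm, Ptprn and Ptprs.

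In the 2 CD73- lists and the CD73+ E2A list, most peaks lay at the longest genes. Per megabase, their density there was above that over all phosphatase genes, the long ones included, as given below. Of the 58 CD73+ E2A peaks at phosphatase genes, 43 lay at the 6 genes over 300 kb (Ptprd, Ptprt, Ptprn2, Ptprm, Ptprg and Ptprk), as did 17 of 23 for CD73- E2A and 17 of 25 for CD73- HEB, against 8 of 50 for DN3 E2A, 9 of 31 for DN3 HEB and 7 of 28 for CD73+ HEB. Per megabase of these 6 genes the CD73+ E2A list had 6.91 peaks, near the 6.45 it had over all genes. The DN3 lists had 1.29 (E2A) and 1.45 (HEB) there, against 6.17 and 5.36 over all genes. CD73+ HEB had 1.13 there, against 4.19, and each CD73- list had 2.73, against 3.83 (E2A) and 3.47 (HEB). Over all phosphatase genes, these 6 included, the densities were 5.93 for CD73+ E2A, 2.35 for CD73- E2A and 2.56 for CD73- HEB. They were 5.11 for DN3 E2A, 3.17 for DN3 HEB and 2.86 for CD73+ HEB. Both DN3 lists and the CD73+ HEB list thus had fewer peaks per megabase at the long genes than over all 36, and the remaining lists had more. The densities over all 36 hold the long genes themselves, so they understate how far the long genes differ from the shorter ones. No density of the shorter genes alone is given. Ptprd carried 7.42 CD73+ E2A peaks per megabase and Ptprt 10.4, and 1 of the 17 peaks at Ptprd and 0 of the 12 at Ptprt overlapped a peak of another list. Without the 6 long genes, 9 of 30 had a CD73+ E2A peak, 4 a CD73- E2A peak and 6 a CD73- HEB peak. No share of all genes under 300 kb is set beside these counts.

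**Figure D4:**
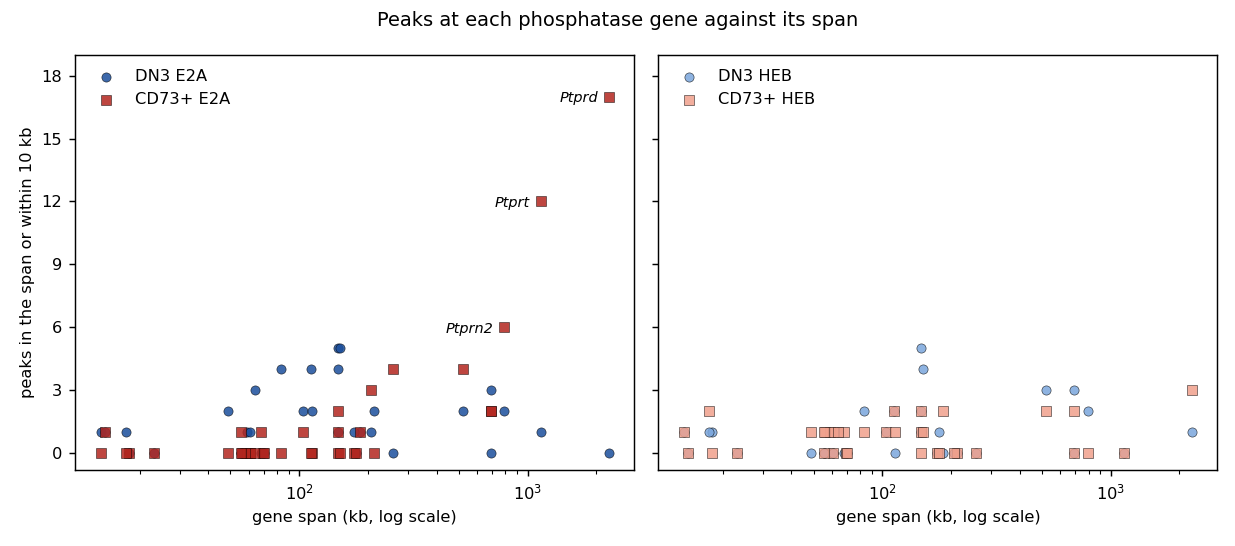
Number of peaks at each of the 36 genes against the gene span (kb, log scale), for the DN3 and CD73+ lists of E2A (left) and HEB (right). The CD73+ E2A count is highest at the longest genes, 17 at Ptprd and 12 at Ptprt, while no gene has more than 5 peaks in either DN3 list.

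Peak width set the strong CD73+ E2A peaks apart as well. There were 6, with a median width of 81.5 bp; 4 of them were under 100 bp wide (at Ptprg, Ptprd, Ptprt and Ptpn3), and 4 overlapped no other list. The strong peaks of the other 5 lists had median widths of 304 to 1130 bp at the same genes. Over the whole CD73+ E2A list, 42.1% of strong peaks were under 100 bp wide. Of all 58 CD73+ E2A peaks at phosphatase genes, 8 overlapped another list (13.8%, against 19.9% for that list at all genes). In the CD73+ HEB list 20 of 28 did (71.4%, against 59.0%). Without the CD73+ E2A list, Ptprg and Ptprt had no strong peak, and Ptprh and Ptprr had no peak.

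**Figure D5:**
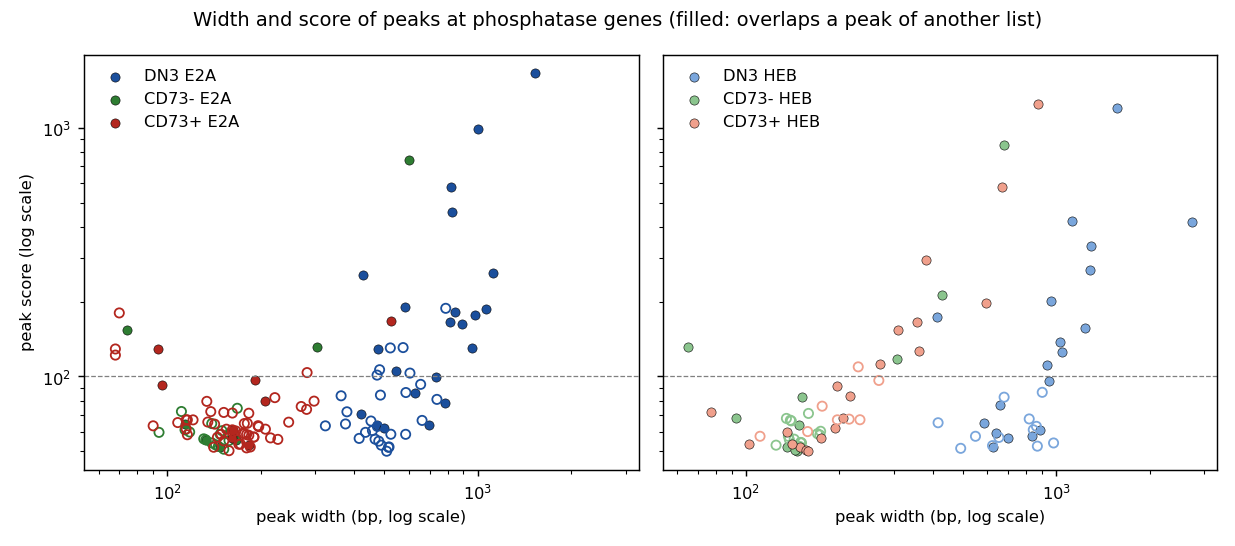
Score against width (bp, both axes log scale) of each peak at the 36 genes, E2A lists on the left and HEB lists on the right; filled points overlap a peak of another list and the dashed line marks a score of 100. Above the line, the open CD73+ E2A points are mostly under 100 bp wide, while DN3 peaks are all over 300 bp.

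Genes that work with these phosphatases were described in the same way. Of 26 tyrosine kinases of lymphocytes, 15 had a peak for DN3 E2A and 16 for DN3 HEB, where genes of like span would give 9.97 and 9.29. In CD73- cells 7 had an E2A and 10 a HEB peak (7.4 and 7.12 at like span), and in CD73+ cells 10 and 13 (9.91 and 7.86). Ptk2b, a kinase of the focal adhesion family, had a peak of 822 in the DN3 E2A list, 422 for DN3 HEB, 72.9 for CD73- E2A, 129 for CD73- HEB and 266 for CD73+ HEB, and no CD73+ E2A peak. Of 24 receptors and adaptors of SHP-1, SHP-2 and CD45, 14 had a DN3 E2A and 12 a DN3 HEB peak (7.65 and 7.14 at like span). Their later counts were 8 (E2A) and 6 (HEB) in CD73- cells (5.31 and 5.11 at like span), and 10 and 11 in CD73+ cells (7.07 and 5.9). The highest were 271 at Pdcd1, which encodes the inhibitory receptor PD-1, in the CD73+ HEB list, 242 at the adaptor Grb2 in the CD73+ E2A list, and 228 at Ptprcap, the CD45-associated protein, in the DN3 E2A list. Of 45 other protein phosphatases, 17 had a DN3 E2A and 12 a DN3 HEB peak (13.2 and 12.3 at like span), then 6 and 9 in CD73- cells (8.97 and 8.78) and 7 and 10 in CD73+ cells (12.0 and 10.2). Their highest were 721 at Ptp4a3 and 443 at Dusp2, both for DN3 HEB, and 293 at Eya2 for DN3 E2A. The kinases thus stood above genes of like span in the 2 DN3 lists and both later HEB lists, and close to them in both later E2A lists.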

How the data were processed

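E2A and HEB binding was measured by ChIP-seq in 3 stages of mouse T cell precursors, 1 library per group after the authors joined duplicates, per the labels' protocols. The submitters' processing notes name MACS 1.4.2, Bowtie and HOMER, and the build mm10. The authors deposited a score with every peak, 10 times the negative log10 of the MACS p-value, which was used unchanged. The files give no depth, so precision is limited to counting error, and 0 columns were left unmatched.

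Peaks were joined to RefSeq gene spans of the same build (GRCm38.p6) within 10 kb, using Python 3.11.15 with pandas 2.3.3, scipy 1.17.1, numpy 2.4.6 and, for figures, matplotlib 3.10.9. Overlap means at least 1 bp, with 95% Wilson intervals. The joining steps were tested on simulated data. Exons and introns are not known from the spans, and no peak sequence was read.

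All 36 genes are accounted for: those with a strong peak by their highest peak in each list, the rest by their highest peak. Positions are given for the 12 highest regions and the highest region of each factor and stage pattern, and the top 3 genes of each partner list are named, except that some are not reported here. The members and lists were chosen with earlier results of these data known. Alternatives changed the distance, the score minimum, the list length, the assignment to genes and the overlap rule. Leaving out the genes over 300 kb or the CD73+ E2A list was chosen after seeing the data.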

Additional observations from a re-analysis of the deposited data

How the results depend on the processing

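No paired analysis was possible because each group has 1 list made from joined duplicates, and for the same reason no replicate could be left out. Of 96 alternative values, 60 stayed within 1.5 times the count or within the interval of the share, and 36 moved. With a score of at least 100, the genes with a peak fell to 12 (DN3 E2A), 8 (DN3 HEB), 3 (CD73- E2A), 4 (CD73- HEB), 5 (CD73+ E2A) and 8 (CD73+ HEB). The 1000 highest peaks of each list left 4, 4, 3, 3, 4 and 3 genes in the same order. A distance of 50 kb raised the CD73- E2A, CD73- HEB and CD73+ E2A counts to 19, 19 and 27. Counting only peaks that overlap another list left 14 genes for DN3 E2A, 6 for CD73- E2A and 7 for CD73+ E2A. Without the genes over 300 kb, chosen after seeing the data, 4 (CD73- E2A), 6 (CD73- HEB) and 9 (CD73+ E2A) of 30 remained. These last counts fell in part because 30 genes and not 36 were counted. No share of all genes is set beside the counts by distance, highest peaks, shared peaks or long genes. They therefore describe the members only and do not set them apart from other genes. Strong HEB peaks overlapped an E2A peak of their stage in 81.8% (DN3), 75.0% (CD73-) and 44.4% (CD73+) of cases. At all genes these shares were 85.5%, 72.9% and 28.6%. Strong DN3 E2A peaks overlapped CD73+ E2A in 19%, against 13.0% at all genes. Strong DN3 HEB peaks overlapped CD73- HEB in 63.6%, against 43.4%, and CD73+ HEB in 72.7%, against 57.1%. Requiring an overlap of 50% of both peaks gave 7.14% for CD73+ HEB on CD73+ E2A, against 8.22% at all genes. It gave 0.0% for DN3 E2A on either later E2A list, against 1.52% (CD73-) and 0.579% (CD73+) at all genes. For DN3 HEB it gave 0.0% on CD73- HEB, against 0.912%, and 6.45% on CD73+ HEB, against 4.97%. This rule cannot be met by peaks of very unequal width, and DN3 peaks at these genes had median widths of 534 (E2A) and 863 bp (HEB) against 143 to 201 bp later. Among regions that hold a strong peak, 17 of 27 E2A regions had no called peak of any score outside DN3 (63.0%, against 62.6% at all genes). The same held for 3 of 14 HEB regions (21.4%, against 27.2%). Without the CD73+ E2A list, also chosen after seeing the data, 82 of 107 regions were of a single list. With the CD73+ E2A and HEB lists exchanged, 4 of 99 HEB regions were called at all 3 stages (4.04%, against 3.04% at all genes). Of 81 E2A regions, 13 were then called at DN3 and CD73+ only (16.0%, against 10.0% at all genes). As labelled, 2 of 121 were (1.65%, against 0.985% at all genes), so the share rose at all genes too. Depth is unknown, so a count of fewer genes in a list cannot be told apart from a shallower library.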
